A study of Mus musculus with 8 samples.

Results

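The cytoplasmic ribosomal protein genes encode the proteins of the large and the small ribosomal subunit, and they were followed in mammary tumours of mice given a granzyme B fusion protein or IgG. The genes were taken from the deposited count table as protein-coding rows whose symbols begin with Rpl, Rps, Rplp or Rpsa and a subunit designation, with the Rps6k kinases left out. This gave 91 of 26709 rows, 54 named for the large and 37 for the small subunit. Of these, 77 are canonical subunits (46 large, 31 small) and 14 are paralogs, copies named as pseudogenes but annotated as protein-coding, or genes that only carry a ribosomal name. A filter on low counts kept 90 of the 91. The exception was Rps23rg1, which had between 0.000125 and 11.8 estimated counts per library.

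RNA was sequenced from 8 tumours. They grew from the mouse mammary carcinoma line EMT6 in Balb/c mice, hosts of the strain the line comes from. The groups were 4 tumours of animals treated with GrB-Fc-KS49 and 4 of animals treated with IgG. All 8 are labelled WT, and all animals were treated 3 times within 10 days. The age of the animals was not given. GrB-Fc-KS49 joins human granzyme B, a protease of cytotoxic lymphocytes, to a part that binds EMP2, a protein of the cell membrane. The treatment label itself reads Granzyme-B, and the full name comes from the study's title. The sources do not say whether the tumours are from separate animals, and the spread behind each p-value may in part be technical.

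A cytoplasmic ribosome joins ribosomal RNA with a nearly fixed set of proteins, 1 copy of most of them per particle, so their mRNAs are made and translated in step. In vertebrates these mRNAs start with a run of pyrimidines, the 5′ terminal oligopyrimidine (TOP) tract, through which mTORC1 and the RNA-binding protein LARP1 regulate their translation. Most of these genes also have processed copies in the genome, so sequencing reads can be hard to place. The tumours are mixtures of carcinoma, stroma and immune cells, and in bulk RNA a change in the number of cells of a type and a change in RNA per cell cannot be told apart.

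The sequences around the starts of 9 genes are shown, with pyrimidine words marked as a stand-in for the TOP tract. The genes differ in their changes, from negative values to the largest canonical one. Each run gives 40 bases before and 20 bases from the start of the gene in RefSeq (GRCm38.p6), 5′ to 3′ on the strand of the gene, with every CTTTC or CTTTT in capitals.
Rplp2: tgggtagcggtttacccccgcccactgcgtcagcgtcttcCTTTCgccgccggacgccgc
Rpl38: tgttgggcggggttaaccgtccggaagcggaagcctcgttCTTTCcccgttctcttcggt
Rpl28: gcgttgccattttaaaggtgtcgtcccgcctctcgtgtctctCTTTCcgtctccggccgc
Rps6: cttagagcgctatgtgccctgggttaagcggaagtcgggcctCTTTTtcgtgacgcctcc
Rps10: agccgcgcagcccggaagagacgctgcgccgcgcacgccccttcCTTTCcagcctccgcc
Rpl4: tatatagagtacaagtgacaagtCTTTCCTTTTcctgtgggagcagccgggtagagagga
Rps7: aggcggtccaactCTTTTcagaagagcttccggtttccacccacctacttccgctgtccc
Rpl22l1: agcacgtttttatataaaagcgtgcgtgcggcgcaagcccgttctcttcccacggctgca
Rpl7l1: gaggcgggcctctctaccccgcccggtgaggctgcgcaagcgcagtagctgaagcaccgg
The windows lie at chr7:141447611-141447670 on the plus strand for Rplp2, chr11:114668540-114668599 on the plus strand for Rpl38 and chr7:4792925-4792984 on the plus strand for Rpl28. Those of Rps6 and Rps10 lie on the minus strand at chr4:86857348-86857407 and chr17:27635225-27635284. Rpl4 lies at chr9:64173347-64173406 on the plus strand, Rps7 at chr12:28635934-28635993 on the minus strand, Rpl22l1 at chr3:28805468-28805527 on the plus strand and Rpl7l1 at chr17:46782637-46782696 on the minus strand. A start was found in the RefSeq table for 66 of the 91 genes, 57 of them canonical. On the strand of the gene, CTTTC or CTTTT, which can overlap each other, began between 20 bases before and 30 bases after the start in 26 of the 57 canonical genes (45.6%), against 3433 of 26959 other genes (12.7%). CCGGAAG, searched on both strands over 300 bases, was present in 24 of the 57 (42.1%), against 9.86% of the other genes. TATAAA on the strand of the gene was present in 5 of the 57 (8.77%), against 9.77% of the others. Rpl22l1 and Rpl7l1, a paralog of Rpl22 and a paralog of Rpl7, had neither pyrimidine word in the windows shown. The window of Rpl22l1 still holds an unbroken stretch of pyrimidines just after the start, so lacking the words is not lacking such a tract. Among the genes shown with CTTTC or CTTTT, Rpl38 had a log2 fold change of 0.79 ± 0.22 (SE) between the groups. Rpl4, at -0.01 ± 0.07, and Rps7, at -0.03 ± 0.11, lay near 0. In Rpl4 and Rps7 the words lie wholly upstream of the RefSeq start, and in Rps7 also upstream of the span used for the count. A relation of the words to the differences was not tested.

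Ribosomal protein mRNAs were higher in the mean of the GrB-Fc-KS49 tumours than in the mean of the IgG tumours for 85 of the 90 genes tested, against 53.2% of all 19718 genes tested. The median log2 fold change was 0.37, against 0.03 over all genes tested. At an unadjusted p under 0.05 in edgeR's quasi-likelihood test, 68 of the 90 were higher, where 17.3% of all genes were, and 1 was lower, where 17.8% of all genes were. No member and no other gene passed an adjusted p under 0.05 in edgeR (0% of 19718), the smallest adjusted p of a member being 0.0619, whereas 59 members passed as higher and 1 as lower with DESeq2, where 11.4% of all genes passed as higher. Without GrB-Fc-KS49 replicate 1, edgeR called 35 members higher, with 2.23% of all genes called higher, and without GrB-Fc-KS49 replicate 4 it called 39 higher, with 7.12%. In 58 of the 90, every GrB-Fc-KS49 tumour lay above every IgG tumour, against 10.3% of all genes, and in 1, Rpl7l1, every GrB-Fc-KS49 tumour lay below, against 15.3%.

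Together the 91 genes took 3.40%, 2.86%, 2.65% and 2.75% of all counts in replicates 1 to 4 of GrB-Fc-KS49, and 2.15%, 2.29%, 2.35% and 2.30% in IgG replicates 1 to 4. The GrB-Fc-KS49 tumours were all above the IgG tumours, and GrB-Fc-KS49 replicate 1 stood highest. The mean share was 2.91% ± 0.332 in GrB-Fc-KS49 tumours and 2.27% ± 0.0855 in IgG tumours (SD, n = 4 each), a ratio of 1.28. The 46 canonical large-subunit genes took 1.31% ± 0.138 in GrB-Fc-KS49 tumours and 1.04% ± 0.0273 in IgG tumours. The 31 canonical small-subunit genes took 1.09% ± 0.132 in GrB-Fc-KS49 tumours and 0.822% ± 0.0309 in IgG tumours. The ratio of the means was 1.26 for the large and 1.32 for the small subunit.

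The summed counts of the large subunit relative to those of the small one were lower in every GrB-Fc-KS49 tumour than in any IgG tumour. The log2 ratio was 0.24, 0.27, 0.28 and 0.30 in replicates 1 to 4 of GrB-Fc-KS49, and 0.37, 0.33, 0.33 and 0.34 in IgG replicates 1 to 4. The difference of the means was -0.07. This is a ratio of summed reads, in which the most abundant rows weigh most, and not a measure of subunit numbers.

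**Figure D1:**
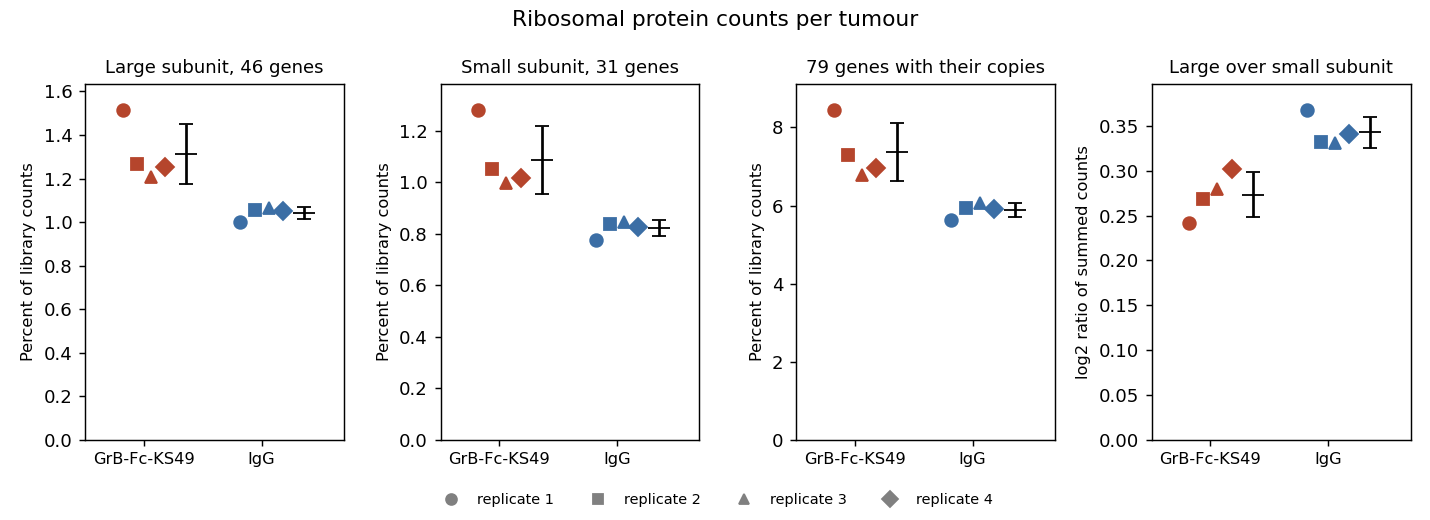
Each symbol is 1 tumour, with GrB-Fc-KS49 at the left and IgG at the right of each panel, and the black bar is the mean ± SD of 4 tumours. The first 3 panels give the percent of library counts in canonical large-subunit genes, canonical small-subunit genes and 79 genes summed with their genomic copies, and the fourth gives the log2 ratio of large to small summed counts. GrB-Fc-KS49 lies above IgG in the first 3 and below it in the fourth, with no overlap in any panel.

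The members' levels spread more widely among the GrB-Fc-KS49 tumours than among the IgG tumours. Relative to the IgG mean, the median log2 level of the members was 0.60, 0.32, 0.21 and 0.31 in replicates 1 to 4 of GrB-Fc-KS49, and -0.10, 0.05, 0.04 and -0.02 in IgG replicates 1 to 4, with an SD of 0.17 among GrB-Fc-KS49 and 0.07 among IgG tumours. GrB-Fc-KS49 replicate 1 had the highest level of all 8 tumours in 80 of the 90 genes, against 30.7% of all genes tested. It had the lowest level in 2 of the 90, against 29.4% of all genes. Standing at an extreme was thus not particular to the members in this tumour. IgG replicate 1 had the lowest level in 69 of the 90, against 15.0% of all genes. Of the 90 members, 82, 75, 64 and 74 lay above every IgG tumour in GrB-Fc-KS49 replicates 1 to 4, where 40.9%, 33.6%, 34.3% and 24.2% of all genes did. Without GrB-Fc-KS49 replicate 1 the members' median log2 fold change was 0.27 and 60 were higher at an unadjusted p under 0.05, where 12.3% of all genes were.

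**Figure D2:**
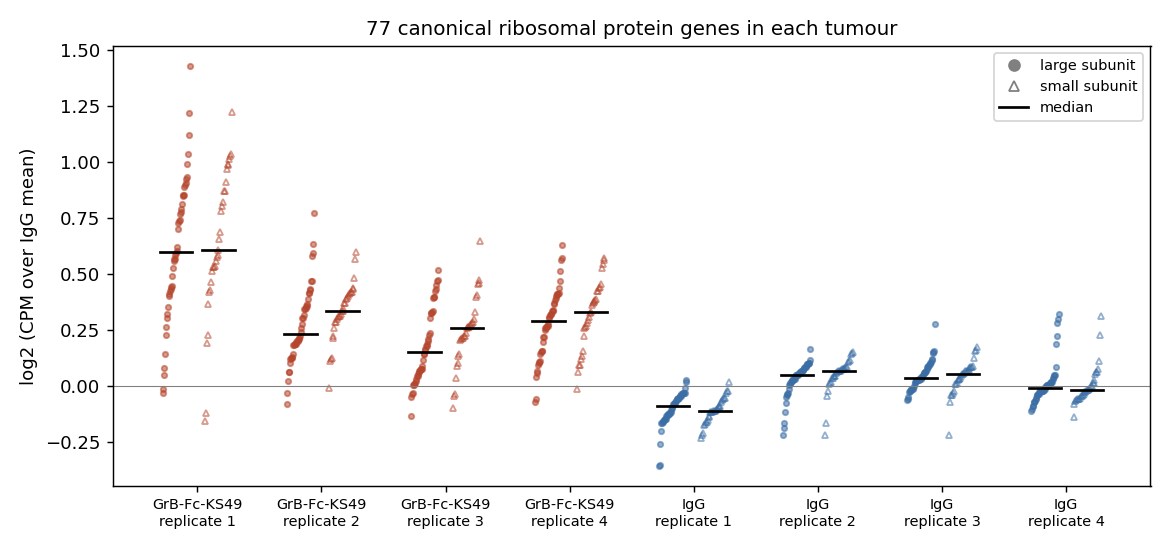
Each point is a canonical ribosomal protein gene in 1 tumour, as the log2 ratio of its TMM-scaled CPM to its mean in IgG tumours, with circles for the large and triangles for the small subunit and a bar at each median. The GrB-Fc-KS49 medians of both subunits lie above 0 in each tumour, highest in replicate 1, and the IgG medians lie near 0.

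Markers of other cells also differed between these tumours, and their part in the ribosomal protein values was not tested. Summed T cell markers (11 measured, 10 higher at an unadjusted p under 0.05) ran from 15.4 to 81.5 CPM in GrB-Fc-KS49 tumours and from 11.7 to 18.0 CPM in IgG tumours. Summed macrophage markers (4 of 8 higher) ran from 1435 to 3080 CPM in GrB-Fc-KS49 tumours and from 1086 to 1398 CPM in IgG tumours. B cell markers (4 of 4 tested higher) summed to 1.96 to 7.08 CPM in GrB-Fc-KS49 tumours and 0.831 to 1.38 CPM in IgG tumours, and adipocyte markers (3 of 7 higher) to 63.3 to 396 CPM in GrB-Fc-KS49 tumours and 46.4 to 78.6 CPM in IgG tumours. Skeletal muscle markers (9 of 10 higher) ran from 40.7 to 2347 CPM in GrB-Fc-KS49 tumours, highest in replicate 1, and from 41.6 to 191.2 CPM in IgG tumours, and epidermal markers (4 of 4 tested higher) from 10.5 to 2221 CPM, highest in replicate 2 of GrB-Fc-KS49, and from 8.29 to 18.5 CPM in IgG tumours. None of the 6 erythroid and none of the 6 epithelial markers passed an unadjusted p under 0.05, the epithelial ones, which include the keratins Krt8 and Krt18, summing to 490 to 813 CPM in GrB-Fc-KS49 tumours and 490 to 551 CPM in IgG tumours. Of 10 proliferation genes, 1 was higher and 5 were lower, with a median log2 fold change of -0.22.

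Among the canonical large-subunit genes, 34 of 46 were higher at an unadjusted p under 0.05, none was lower, and the median log2 fold change was 0.34. The smallest p belonged to Rpl41 (ENSMUSG00000093674), a very short protein at the interface of the subunits, encoded at chr10:128383984-128385175 on the minus strand (GRCm39). Rpl41 had 1165, 929, 850 and 832 TMM-scaled CPM in replicates 1 to 4 of GrB-Fc-KS49, and 581, 639, 615 and 623 CPM in IgG replicates 1 to 4. The lowest GrB-Fc-KS49 tumour was well above the highest IgG tumour. The log2 fold change was 0.62 ± 0.11 (SE), with an edgeR unadjusted p of 0.000407 and an adjusted p of 0.0619. Rpl13a, best known besides the ribosome for silencing inflammatory mRNAs in myeloid cells, had 931, 743, 747 and 736 CPM in GrB-Fc-KS49 tumours and 534, 592, 553 and 547 CPM in IgG tumours, a log2 fold change of 0.50 ± 0.09. Rpl37a, a zinc-binding protein of the large subunit, had 240, 149, 158 and 164 CPM in GrB-Fc-KS49 tumours and 101, 116, 113 and 111 CPM in IgG tumours, a log2 fold change of 0.69 ± 0.15. Rpl34 differed by 0.49 ± 0.10. None of these genes overlapped between the groups, and GrB-Fc-KS49 replicate 1 was the highest tumour for each of them.

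The largest log2 fold change of a canonical gene was 0.79 ± 0.22, in Rpl38, whose loss in mice alters the translation of homeobox mRNAs. Rpl38 had 54.1, 27.1, 28.0 and 29.7 CPM in replicates 1 to 4 of GrB-Fc-KS49, and 19.2, 20.2, 20.5 and 20.7 CPM in IgG replicates 1 to 4. It was chosen after its values were seen. GrB-Fc-KS49 replicate 1 was far above the rest, and the other GrB-Fc-KS49 tumours also lay above every IgG tumour.

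The stalk proteins, which recruit the GTPase factors of translation to the large subunit, were all higher at an unadjusted p under 0.05 in edgeR. Rplp1 had 918, 621, 589 and 640 CPM in GrB-Fc-KS49 tumours and 432, 476, 444 and 442 CPM in IgG tumours, a log2 fold change of 0.63 ± 0.14. Rplp2, whose start is printed above, had 120.5, 85.7, 83.9 and 89.2 CPM in GrB-Fc-KS49 tumours and 68.2, 67.3, 66.3 and 66.1 CPM in IgG tumours, a log2 fold change of 0.50 ± 0.12. Rplp0, the base of the stalk, had 769, 736, 665 and 715 CPM in GrB-Fc-KS49 tumours and 624, 671, 663 and 603 CPM in IgG tumours, a log2 fold change of 0.17 ± 0.07. The groups overlapped for Rplp0 and for neither of its partners.

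Rpl5 and Rpl11 bind 5S ribosomal RNA and, when ribosome assembly stalls, the p53 regulator MDM2. Rpl11 had 30.4, 28.7, 27.7 and 30.3 CPM in GrB-Fc-KS49 tumours and 23.4, 24.7, 23.9 and 25.2 CPM in IgG tumours, without overlap, a log2 fold change of 0.27 ± 0.06 (edgeR unadjusted p = 0.00258). Rpl5 had 11.3, 9.88, 11.2 and 8.13 CPM in GrB-Fc-KS49 tumours and 7.79, 7.28, 8.39 and 10.4 CPM in IgG tumours, with overlap and a log2 fold change of 0.26 ± 0.15 (edgeR unadjusted p = 0.127). The own rows held 4.28% (Rpl11) and 0.704% (Rpl5) of the counts of these genes with their genomic copies, and summed with the copies the log2 fold changes were 0.15 for Rpl11 (edgeR unadjusted p = 0.0637), with overlap, and 0.07 for Rpl5. Of 8 listed proteins around the exit tunnel for the nascent chain, 6 were higher at an unadjusted p under 0.05, Rpl23a and Rpl26 being the others. The list leaves out Rpl4, which also lines the tunnel and had a log2 fold change of -0.01 ± 0.07.

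Among the canonical small-subunit genes, 26 of 31 were higher at an unadjusted p under 0.05, none was lower, and the median log2 fold change was 0.40. In 25 of the 31 the groups did not overlap, against 25 of the 46 large-subunit genes. The difference of the subunit medians over all 90 members was -0.05 (large minus small) and was not tested, since the genes of a subunit are not replicates. Rps27a, which is made as a fusion with ubiquitin and is encoded at chr11:29495847-29498110 on the minus strand (GRCm39), had 176, 130, 136 and 133 CPM in GrB-Fc-KS49 tumours and 91.8, 104, 97.8 and 104 CPM in IgG tumours, a log2 fold change of 0.53 ± 0.11 (edgeR unadjusted p = 0.000771, adjusted p = 0.0619). Rps29 had 261, 184, 189.05 and 211 CPM in GrB-Fc-KS49 tumours and 132, 154, 144 and 142 CPM in IgG tumours, a log2 fold change of 0.57 ± 0.12. Rps21 had the largest log2 fold change of the subunit, 0.75 ± 0.17, with 103, 66.9, 60.8 and 65.8 CPM in GrB-Fc-KS49 tumours and 38.01, 43.6, 49.4 and 45.9 CPM in IgG tumours. For all 3 genes every GrB-Fc-KS49 tumour lay above every IgG tumour.

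Rps14, which lies by the mRNA and is lost in the human 5q- syndrome, had 421, 412, 365 and 408 CPM in GrB-Fc-KS49 tumours and 274, 307, 339 and 298 CPM in IgG tumours, a log2 fold change of 0.40 ± 0.08. Rps13 had only 18.2, 11.98, 14.2 and 13.01 CPM in GrB-Fc-KS49 tumours and 7.99, 8.77, 8.78 and 10.6 CPM in IgG tumours, a log2 fold change of 0.67 ± 0.15. Neither overlapped between the groups. Of 9 small-subunit proteins along the path of the mRNA, 7 were higher at an unadjusted p under 0.05, with Rps2 at a log2 fold change of 0.00 and Rps26 at 0.26 as the others. Of 9 genes mutated in human Diamond-Blackfan anaemia, an inherited failure of red cell production, 6 were higher, with Rpl35a the largest at 0.74 and Rps7 the lowest at -0.03.

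**Figure D3:**
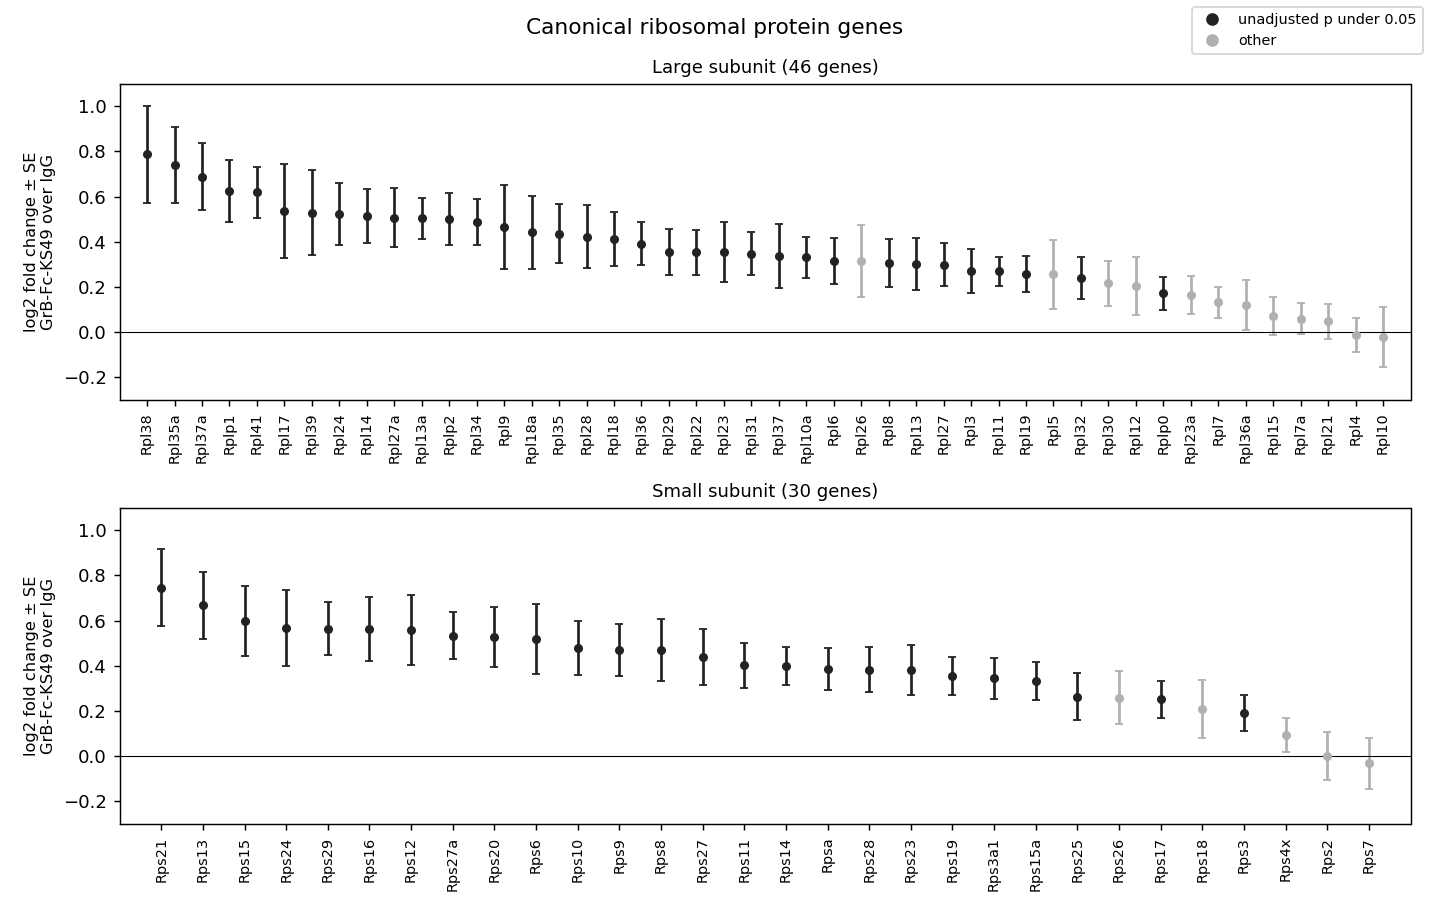
Points are the log2 fold changes (GrB-Fc-KS49 over IgG) of the 46 large-subunit and 30 of the 31 small-subunit canonical genes with bars of 1 standard error, sorted within each subunit, in black where the unadjusted p was under 0.05 in edgeR. Values run from 0.79 for Rpl38 to -0.02 for Rpl10 in the large and from 0.75 for Rps21 to -0.03 for Rps7 in the small subunit.

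Per kilobase of transcript, the highest level was 1756 CPM per kb in the canonical large subunit, for Rpl8, a core protein near the catalytic centre, and 1422 CPM per kb in the canonical small subunit, for Rps15, and the medians were 174 CPM per kb for the large and 296 CPM per kb for the small subunit. These levels are those of the own rows, so they depend on how reads were divided between a gene and its copies. The lengths are medians over the annotated transcripts of a gene. Rpl8 had 2202, 1602, 1624 and 1836 CPM in GrB-Fc-KS49 tumours and 1440, 1509, 1497 and 1430 CPM in IgG tumours, without overlap and with a log2 fold change of 0.31 ± 0.11 (edgeR unadjusted p = 0.0195). Differences varied among the abundant genes. Rpl4, a protein that lines the exit tunnel, had 1518, 1620, 1413 and 1594 CPM in GrB-Fc-KS49 tumours and 1518, 1640, 1595 and 1446 CPM in IgG tumours, a log2 fold change of -0.01 ± 0.07. Rps3, at the entry of the mRNA channel, had 925, 977, 839 and 866 CPM in GrB-Fc-KS49 tumours and 743, 837, 831 and 748 CPM in IgG tumours, a log2 fold change of 0.19 ± 0.08. Rpsa and Rps9, also among the most abundant small-subunit rows, differed by 0.39 ± 0.09 and 0.47 ± 0.12, both without overlap. Across the 77 canonical genes, the log2 fold change and the log10 mean CPM had a Spearman rho of 0.02, given as a description across genes that share the libraries.

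A negative log2 fold change was found in 5 members. Only Rpl7l1 among them passed an unadjusted p under 0.05, with 110, 113, 120.8 and 123 CPM in GrB-Fc-KS49 tumours and 138, 136, 133 and 128 CPM in IgG tumours. All its GrB-Fc-KS49 tumours lay below the IgG tumours, and the log2 fold change was -0.20 ± 0.06 (edgeR unadjusted p = 0.0125, adjusted p = 0.0743). Rpl10, which joins the large subunit late in its maturation, had 25.7, 26.4, 25.4 and 24.7 CPM in GrB-Fc-KS49 tumours and 20.4, 23.2, 28.8 and 31.6 CPM in IgG tumours, a log2 fold change of -0.02 ± 0.13. Rps7, at -0.03 ± 0.11, had 48.9, 59.2, 50.8 and 54.0 CPM in GrB-Fc-KS49 tumours and 46.3, 60.4, 61.4 and 49.5 CPM in IgG tumours. The sign of Rpl10 was positive under upper quartile scaling (0.04), the stricter filter (0.01), limma with either pseudocount (0.02) and without IgG replicate 3 (0.02) or 4 (0.10). The signs of Rpl4 and Rps7 also turned under upper quartile scaling, to 0.05 and 0.03. Rpl39l, a testis paralog of Rpl39, was below 0.5 CPM in every tumour and differed by -0.25 ± 0.51.

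The other paralogs were mostly higher in GrB-Fc-KS49 tumours. Rpl22l1 had 161, 128, 126 and 124 CPM in GrB-Fc-KS49 tumours and 93.9, 99.0, 102 and 98.9 CPM in IgG tumours, a log2 fold change of 0.45 ± 0.09, beside 0.35 ± 0.10 for its partner Rpl22. Rpl36al had 426, 310, 308 and 317 CPM in GrB-Fc-KS49 tumours and 241, 259, 249 and 244 CPM in IgG tumours, a log2 fold change of 0.46 ± 0.11. Rps27rt, a retrocopy of Rps27, and its paralog Rps27l differed by 0.57 ± 0.13 and 0.38 ± 0.12. None of these overlapped between the groups. Rps19bp1, a nucleolar protein that binds Rps19 but is no subunit, differed by 0.19 ± 0.09 (edgeR unadjusted p = 0.0601).

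Rpl3l, the paralog of Rpl3 that is made in skeletal and heart muscle, stood apart from the canonical genes. It had 5.65, 0.626, 0.523 and 0.124 CPM in replicates 1 to 4 of GrB-Fc-KS49, and 0.242, 0.0791, 0.0690 and 0.0868 CPM in IgG replicates 1 to 4. Its level was set by GrB-Fc-KS49 replicate 1, the tumour with the most muscle marker RNA (2347 CPM summed), and the groups overlapped. The log2 fold change of 3.83 ± 1.17 (edgeR unadjusted p = 0.0108) was 1.80 without that tumour. The part of muscle RNA in this value was not tested.

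Copies named as pseudogenes but annotated as protein-coding carried a large share of the reads. Rpl10-ps3 had 1988, 1944, 1256 and 1597 CPM in GrB-Fc-KS49 tumours and 1238, 1369, 1761 and 1537 CPM in IgG tumours, with overlap and a log2 fold change of 0.20 ± 0.17. Per kilobase it had 2066 CPM, where Rpl10 itself had 35.6 CPM. Rpl9-ps6 and Rps18-ps5 differed by 0.34 ± 0.09 and 0.52 ± 0.13, Rpl36a-ps1 by 0.50 ± 0.16 and Rps18-ps6 by 0.18 ± 0.08. The division of reads between a gene and such copies is the work of the quantifier, which the sources do not name, so values of single rows with near-identical copies are uncertain.

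Each of 79 ribosomal protein genes (the 77 canonical ones among them) was therefore summed with its copies, 835 rows matched to the parent mRNA by sequence, as an alternative chosen after the data were seen. The gene's own row held a median of 22.2% of the counts of its family. It held under 10% in 21 families, among them Rps2 (0.490%), Rps27 (0.630%), Rps18 (1.11%) and Rpl10 (1.60%), and at least 50% in 24. The families took 8.45%, 7.30%, 6.79% and 6.96% of counts in replicates 1 to 4 of GrB-Fc-KS49, and 5.63%, 5.94%, 6.06% and 5.92% in IgG replicates 1 to 4, again without overlap. Of the 79 families, 64 were higher at an unadjusted p under 0.05 in edgeR (17.3% of all rows in that fit) and 53 did not overlap (10.2%), with a median log2 fold change of 0.35. The family of Rps7, whose own row held 4.09% of its counts, had a log2 fold change of 0.31, against -0.03 for the own row. The family of Rpl4, whose own row held 93.4%, had -0.01, and that of Rpl3 had -0.02, against 0.27 for the own row of Rpl3, the only negative families. Of the 77 canonical genes, 5 that were higher at an unadjusted p under 0.05 by their own row were not by family, namely Rpl11, Rpl19, Rpl29, Rpl3 and Rpl37, and 7 were higher by family and not by their own row. No copy was matched to Rpl41 or Rpl8, so their own rows held all counts of their families. Copies that the match did not reach were not examined.

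Ribosomal protein transcripts are short, with a median length of 704 nt against 2159 nt over the 14486 genes tested that had a length, and short transcripts were higher in GrB-Fc-KS49 tumours in general. The log2 fold change had a Spearman rho of -0.35 with transcript length over the 14486 genes and of -0.33 within the 77 canonical members, a description across genes that share the libraries. Among transcripts under 1000 nt, 59 of 74 members (79.7%) were higher at an unadjusted p under 0.05, with a median of 0.38, against 855 of 2479 other genes (34.5%) with a median of 0.19. From 1000 to 2000 nt, 7 of 14 members were higher, with a median of 0.28, against 22.04% of other genes with a median of 0.12. At 4000 nt and over, where there was no member, 4.67% of genes were higher and 42.0% lower. After each library's smooth trend with length and GC content was removed, 41 of the 90 members were higher at an unadjusted p under 0.05 (11.8% of all genes in that fit), 34 did not overlap (6.24%) and the median was 0.18, against -0.00 over all genes. In that fit 14 members were negative, Rplp0 among them at -0.07, while Rpl41 was at 0.37 and Rps21 at 0.52. RNA integrity was not given, and its part in the relation with length was not tested.

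**Figure D4:**
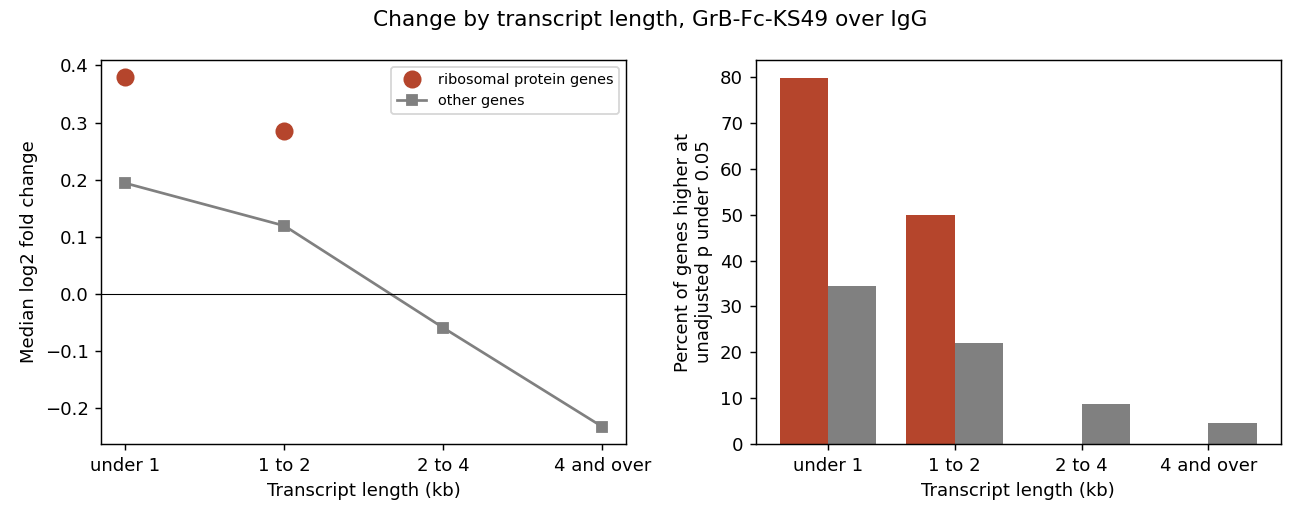
The left panel gives the median log2 fold change (GrB-Fc-KS49 over IgG) of ribosomal protein genes (red circles) and of other genes (grey squares) by transcript length, and the right panel the percent of genes higher at an unadjusted p under 0.05 (red and grey bars). Classes with fewer than 10 members show other genes only. Members lie above other genes of like length in both classes shown, at 0.38 against 0.19 under 1 kb.

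Of the ribosomal genes whose names the rule leaves out, Fau, a ubiquitin-like fusion with a small-subunit protein, had 313, 188, 163 and 198.2 CPM in GrB-Fc-KS49 tumours and 119, 135, 137 and 138 CPM in IgG tumours, a log2 fold change of 0.70 ± 0.19. Rack1, the signalling scaffold on the small subunit, had 1141, 1235, 1117 and 1118 CPM in GrB-Fc-KS49 tumours and 1071, 1131, 1120 and 1038 CPM in IgG tumours, with overlap and a log2 fold change of 0.08 ± 0.07.

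The mitochondrial ribosome and the respiratory chain, both made largely of short nuclear-encoded mRNAs, had positive medians as well. Of 78 mitochondrial ribosomal protein genes, 40 were higher and 2 lower at an unadjusted p under 0.05, with a median log2 fold change of 0.23 and values of 0.57 for Mrpl14 and Mrps16. Of 78 oxidative phosphorylation genes, 65 were higher and 2 lower, with a median of 0.41 and a value of 0.68 for Uqcrh of complex III. With the trend of length and GC removed the medians were 0.09 for the mitochondrial ribosome and 0.23 for oxidative phosphorylation, beside 0.18 for the cytoplasmic members. Of 150 tested rows named as ribosomal protein pseudogenes, 71 were higher and none was lower, with a median of 0.38, and these rows share reads with the members.

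The lists of genes that build ribosomes or act in cytoplasmic translation had medians between -0.33 and 0.09, beside 0.03 over all genes tested, of which 17.3% were higher and 17.8% lower. With the trend of length and GC removed, 1704 of all 14486 genes in that fit were higher and 2156 lower. Of 34 ribosome biogenesis genes, 2 were higher and 10 lower at an unadjusted p under 0.05, with a median log2 fold change of -0.13, and with the trend of length and GC removed 0 were higher and 10 lower, with a median of -0.09. Tsr1, needed for small-subunit maturation, had 49.6, 57.4, 48.2 and 59.8 CPM in GrB-Fc-KS49 tumours and 71.2, 72.5, 76.1 and 68.1 CPM in IgG tumours, a log2 fold change of -0.42 ± 0.09. Utp20, of the processome that cuts the ribosomal RNA precursor, was at -0.46 ± 0.09. Of 14 RNA polymerase I genes, 3 were higher and 4 lower, with a median of -0.01, Polr1b at -0.42 and Polr1h at 0.42. The 4 dedicated chaperones of ribosomal proteins included 1 lower gene, Heatr3 at -0.41 ± 0.10.

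MYC drives the transcription of ribosomal protein genes and mTORC1 the translation of TOP mRNAs. Of 15 genes around both, 1 was higher and 7 were lower at an unadjusted p under 0.05, with a median of -0.16. With the trend of length and GC removed, none of these was higher, 3 were lower and the median was -0.07. Of all 14486 genes in that fit, 2156 were lower. Mtor, the kinase itself, had 33.6, 38.7, 31.03 and 36.8 CPM in GrB-Fc-KS49 tumours and 42.7, 46.3, 53.3 and 43.2 CPM in IgG tumours, a log2 fold change of -0.40 ± 0.10. Rptor, its partner in the complex, was at -0.41 ± 0.10 and Tsc1, an inhibitor of the complex, at -0.41 ± 0.09, so genes of opposite role lay on the same side. Of 15 other TOP mRNAs, 5 were higher and 3 lower, with a median of 0.04, Btf3 at 0.37 and Eif3l at -0.25.

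Of 20 initiation factor genes, 2 were higher and 6 lower, with a median of -0.03 and Eif4g1, the scaffold of cap-dependent initiation, at -0.40 ± 0.10. Of 8 elongation and termination genes, 1 was higher, Eef1b2 at 0.31 ± 0.08, and 2 were lower, Gspt1 at -0.45 ± 0.12 and Etf1 at -0.27 ± 0.09. Of 15 partners of the nascent chain, 5 were higher and 3 lower, with a median of 0.09 and Srp9, of the signal recognition particle, at 0.46 ± 0.12. Of 9 genes that sense or rescue stalled ribosomes, none was higher and 6 were lower, with a median of -0.33. Their transcripts had a median length of 3318 nt. With the trend of length and GC removed 5 were lower, against 2156 of all 14486 genes in that fit, and the median was -0.21. Ltn1, the ligase of ribosome quality control, had 35.9, 47.8, 41.6 and 48.2 CPM in GrB-Fc-KS49 tumours and 60.9, 61.1, 62.4 and 57.4 CPM in IgG tumours, a log2 fold change of -0.48 ± 0.10, and Abce1, which splits terminated ribosomes, was at -0.47 ± 0.11. All of these tests were edgeR's quasi-likelihood test over the whole table, and no adjusted p was under 0.05.

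**Figure D5:**
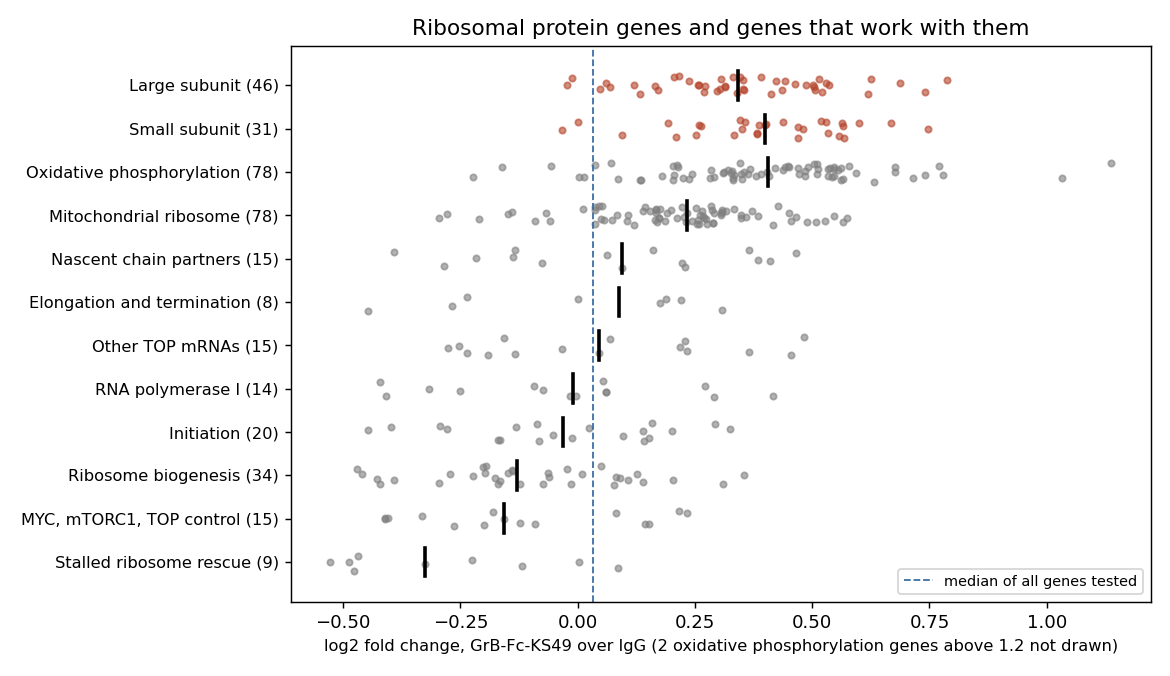
Each point is the log2 fold change (GrB-Fc-KS49 over IgG) of 1 gene, with the 2 ribosomal subunits in red and 10 further lists in grey, the number of tested genes in brackets, a black bar at each median and a dashed line at the median of all genes tested (0.03). Cox8b and Cox6a2, at 3.24 and 3.21, lie outside the axis. Medians run from 0.41 for oxidative phosphorylation to -0.33 for stalled ribosome rescue, with 0.34 for the large and 0.40 for the small subunit.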

How the data were processed

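Enriched mRNA of 8 tumours was prepared with the KAPA Stranded mRNA-Seq kit, with dUTP in the second cDNA strand, per the labels' protocols. The submitters' processing notes name bcl2fastq 2.19.1.403, STAR and the build GRCm39. No source used here names the quantifier, the annotation or whether strand was used. The authors deposited estimated counts per gene and CPM, which per the file headers and values are the same counts plus 0.0001, scaled to the library total. Totals were 74.0 to 82.6 M per library.

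Estimated counts were rounded, filtered with filterByExpr and compared over 19718 genes with edgeR 4.0.16 (robust quasi-likelihood test, TMM scaling, R 4.3.3), with Benjamini-Hochberg adjustment over all genes tested. The biological coefficient of variation was 27.8%. CPM in the text are TMM-scaled, except summed cell type markers and percent of counts, which use library totals. Lengths and GC come from GENCODE M21 transcripts. Copies were matched with blastn 2.17.0 (at least 90% identity over 50% of the copy). Only the recovery of set fold changes was checked on simulated counts, drawn with the same variability for all genes and no outlying tumour. The p-values were not checked in this way. A low-count filter, scalings, DESeq2 1.42.0, limma 3.58.1 (also on the deposited CPM), a length and GC trend (mgcv 1.9.3), libraries with the title suffix U (IgG replicate 1, GrB-Fc-KS49 replicate 3, of unstated meaning) and each library left out were tried as alternatives.

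Members and gene lists were chosen with earlier results of these data known. Genes were named by fixed rule: per subunit the 5 smallest p and the 3 highest levels, negative members, the stalk and 5S lists, paralogs, Fau and Rack1, and up to 3 genes per further list by smallest p. Others were chosen after their values were seen (Rpl38, Rpl35a, Rps15, Rps2, Rps26, Rpl26, Rpl23a, Rpl22, Rpl3, Rpl19, Rpl29, Rpl37, the families named, and the genes whose starts are printed). Replicates were numbered in accession order and pair nothing. Some single genes are counted in totals and lists but not reported here by name.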

Additional observations from a re-analysis of the deposited data

Results flagged for a closer look

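Of 148 groups of 4 tumours examined gene by gene, 22 held a tumour whose distance to its nearest neighbour took up most of the group's range; chance marks about 1 group in 20. GrB-Fc-KS49 replicate 1 was that tumour in 14, all with the highest value of its group. Among these, the CPM was 5.65 for Rpl3l, 918 for Rplp1, 120.5 for Rplp2, 176 for Rps27a, 103 for Rps21, 161 for Rpl22l1, 240 for Rpl37a, 426 for Rpl36al and 931 for Rpl13a. For genes outside the members it was 67.6 for Mrpl14, 48.5 for Mrps16, 839 for Eef1b2, 236 for Uqcrh and 97.5 for Rps15a-ps6. GrB-Fc-KS49 replicate 4 stood highest in its group for Eif3c at 364 CPM. Among IgG tumours, replicate 1 stood highest for Rpl3l at 0.242 CPM and Map3k20 at 152 CPM and lowest for Fau at 119 CPM. IgG replicate 3 stood highest for Rptor at 54.8 CPM, and IgG replicate 4 lowest for Eif3l at 218 CPM, Eif4g1 at 594 CPM and Abce1 at 286 CPM.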

How the results depend on the processing

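Over the 90 members, the count higher at an unadjusted p under 0.05 ran from 60 to 75 and the non-overlapping count from 58 to 71 when 1 tumour was left out, beside 68 and 58 in all 8. Of all genes tested, 12.1% to 20.1% were higher with 1 tumour left out, beside 17.3% in all 8. The groups did not overlap, with GrB-Fc-KS49 higher, in 10.3% of all genes in all 8. That share is not given here with 1 tumour left out. Fewer tumours make non-overlap easier to reach for any gene, so the members' range is a description only. The members' adjusted count ran from 0 to 39, with 35 without GrB-Fc-KS49 replicate 1 and 39 without GrB-Fc-KS49 replicate 4, and it was 60 with DESeq2 (59 higher, 1 lower). Over all genes, the adjusted count was 1260 of 19944 without replicate 1, 3447 of 20102 without replicate 4 and 4708 of 19718 with DESeq2. The members' count lower ran from 0 to 1, and it was 0 under upper quartile scaling, without both U libraries, for canonical members and for family sums. Removing the trend of length and GC gave 41 higher (11.8% of all genes in that fit), 34 non-overlapping (6.24%) and a median of 0.18. Of 26 members with no copy named as a pseudogene, 23 were higher, 0 lower and 23 non-overlapping, with a share difference of 0.232 points, a large to small log2 ratio difference of -0.11 and a large minus small median of 0.0038 in place of -0.05. Family sums gave a share difference of 1.49 points, against 0.642, and a ratio difference of -0.10, against -0.07. The causes of these shifts were not tested. The 26 members are also fewer genes than the 90. Upper quartile scaling moved the median of all genes to 0.09 and the members' median to 0.42.

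Of 72 named genes, 9 changed sign in some setting. As no gene tested had an adjusted p under 0.05 in edgeR with all 8 tumours, that threshold does not set these 9 apart. Under upper quartile scaling Rpl10, Rpl4 and Rps7 were at 0.036, 0.046 and 0.027, under library totals Rpl4 was at 0.012, and under the stricter filter Rpl10, Rpl4 and Rps7 were at 0.012, 0.024 and 0.0051. Limma on log2(CPM + 1) and log2(CPM + 0.25) gave 0.019 and 0.020 for Rpl10 and 0.0096 and 0.0096 for Rpl4, and without both U libraries Rpl4 was at 0.015. With 1 tumour left out, Rpl10 ran from -0.10 to 0.099, Rpl4 from -0.034 to 0.023, Rps7 from -0.083 to 0.024 and Rpl39l from -0.53 to 0.081. Removing the trend of length and GC gave -0.026 for Rack1, -0.066 for Rps19bp1, -0.030 for Grwd1, -0.070 for Rplp0 and -0.025 for Rps18-ps6.

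No paired analysis was possible because the labels share no replicate numbers between the groups. Depth limits rows such as Rpl3l and Rpl39l most, which lay near or below 1 CPM in most tumours.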
